A study of Mus musculus with 30 samples.

Results

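The netrin, Slit and class 3 semaphorin guidance cues and their receptors were followed in cultured mouse limb mesenchyme through 10 named genes. These are the cues Ntn1, Slit2, Slit3, Sema3a, Sema3c and Sema3d and the receptors Robo1, Robo2, Nrp1 and Nrp2. Each gene was read from the brightest of its probe sets, and 9 of the 10 were among the 15136 genes tested. Robo2 was not tested, because its only probe set never rose above the 40th percentile of its array.

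Limb bud cells of CD-1 mouse embryos at stage E10.5 were plated as dense cultures, in which mesenchyme forms cartilage, and their RNA was hybridised to 30 microarrays. The early population came from the distal hindlimb, the intermediate population from the distal forelimb and the late population from the proximal forelimb. Control cultures of each population were sampled at days 0, 1 and 2. Cultures that received the bone morphogenetic protein BMP4 from time 0, at 20 ng/ml, were sampled at days 1 and 2. This gives 15 groups of 2 arrays, called biological replicates in the labels, with cells pooled from about 280 embryos. No group carries a genetic change. The growth protocol also speaks of cultures from E11.5 limbs, and every array used here is labelled E10.5. Values are differences or levels on the scale log2(signal + 16), on which a level of 4 means no signal. Errors after ± are standard errors fitted by limma, and a change is called when its Benjamini-Hochberg adjusted p is below 0.05.

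Guidance cues are secreted or membrane-bound proteins that attract or repel growing axons and migrating cells. Netrin-1 acts through DCC, neogenin and UNC5 receptors, and Slit proteins repel through Robo receptors. Class 3 semaphorins bind neuropilins, which hold the ligand while plexins pass the signal into the cell. Neuropilins also bind vascular endothelial growth factors. In the limb these families are known for steering motor and sensory axons and vessels, and several of the cues are made by the mesenchyme itself.

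The labels of 3 day 0 arrays were in doubt. Pitx1, a transcription factor of the hindlimb, stood at 9.74 on early replicate 1 but at 5.90 on the array labelled early replicate 2. It stood at 6.15 on intermediate replicate 1 and at 9.43 on the array labelled intermediate replicate 2. Tbx5, its forelimb counterpart, ran the other way, at 4.47 and 8.50 on the early arrays and at 8.47 and 4.68 on the intermediate arrays. Meis2, a factor of the proximal limb, was 9.60 on late replicate 1 and 7.53 on the array labelled late replicate 2. Arrays were kept under their labels, changes since day 0 were averaged over the 3 populations, and results that rest on these arrays are given with and without them. The doubted arrays also enter the errors of comparisons that do not contain them, since each gene has 1 spread for all 15 groups.

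The median signal of an array was 33.9 to 46.4, and the arrays of a group correlated at 0.970 to 0.984 across genes, which are not independent replicates. Their number, 2 per group, limits the precision. Summed signals of red blood cell markers were 7310 to 17400 on day 0 arrays and 18.2 to 410 in culture, and those of endothelial markers 465 to 895 and 150 to 322. Summed smooth muscle markers were 306 to 463 on day 0 and 6600 to 11400 in culture, and summed cartilage markers 1070 to 2690 and 3640 to 17600. Summed skeletal muscle markers were 192 to 572 on day 0, and in control cultures 1290 to 4030 in the early and intermediate and 7250 to 8770 in the late population. The 6 markers of limb mesenchyme summed to 4770 to 8270 on all arrays, so their signal was found on each. These sums were not a test of hindlimb against forelimb or of distal against proximal limb. The doubt about the day 0 labels therefore stands. In such mixed cultures, fewer cells of a type and less RNA per cell cannot be told apart. The part these cell types play in the results was not tested.

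Promoter sequence was matched in RefSeq (assembly GRCm38.p6) for 9 of the 10 genes, with 11 start sites in all, since Robo2 has 3. The 250 bases upstream of the start are shown for 4 of them: 3 cues that rose most in culture and Nrp2, the receptor that fell. Capitals mark every match, on either strand, to a TATA box (TATAAA), a GC box (GGGCGG) or a CCAAT box (CCAAT). All 4 lie on the plus strand, Slit2 at chr5:47982905-47983154, Sema3c at chr5:17574566-17574815, Sema3d at chr5:12382916-12383165 and Nrp2 at chr1:62703067-62703316.
Slit2: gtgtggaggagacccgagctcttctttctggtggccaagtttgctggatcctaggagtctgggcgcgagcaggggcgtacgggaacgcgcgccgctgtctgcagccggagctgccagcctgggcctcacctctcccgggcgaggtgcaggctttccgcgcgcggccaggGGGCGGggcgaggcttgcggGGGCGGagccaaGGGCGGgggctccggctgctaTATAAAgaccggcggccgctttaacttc
Sema3c: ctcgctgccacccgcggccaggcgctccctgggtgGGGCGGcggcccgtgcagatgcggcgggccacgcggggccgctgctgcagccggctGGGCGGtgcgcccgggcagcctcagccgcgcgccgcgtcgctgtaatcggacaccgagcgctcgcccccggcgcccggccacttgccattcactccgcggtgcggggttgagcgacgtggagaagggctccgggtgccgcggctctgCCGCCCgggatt
Sema3d: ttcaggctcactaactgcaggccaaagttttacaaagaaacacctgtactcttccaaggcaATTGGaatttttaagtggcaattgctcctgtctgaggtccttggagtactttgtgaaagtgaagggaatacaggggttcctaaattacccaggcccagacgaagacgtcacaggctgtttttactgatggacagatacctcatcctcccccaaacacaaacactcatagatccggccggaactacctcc
Nrp2: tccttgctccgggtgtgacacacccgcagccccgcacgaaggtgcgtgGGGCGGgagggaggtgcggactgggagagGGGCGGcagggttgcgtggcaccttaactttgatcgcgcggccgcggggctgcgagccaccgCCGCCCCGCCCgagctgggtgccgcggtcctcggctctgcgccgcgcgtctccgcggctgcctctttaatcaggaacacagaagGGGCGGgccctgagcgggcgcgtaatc

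The windows differ in composition although 3 of the genes rose together. The Slit2 window held a TATA box 28 bases before the start, 3 GC boxes and 25 CpG dinucleotides at 69.6% GC. That of Sema3c held 3 GC boxes and 39 CpG, and that of Nrp2 held 5 GC boxes, a pair of which overlap, and 32 CpG. Sema3d had 4 CpG at 46.8% GC, with no GC box and 1 CCAAT box 189 bases before the start. Sema3a, which also rose in culture, had 2 CpG at 40.8% GC and none of the 3 motifs. Its window, at chr5:13396534-13396783, belongs to a start site inside the gene, which begins at 13124822. The Slit2 window also lies inside its gene, which begins at 47981291. Which start sites these cells used was not tested. Over all 32841 RefSeq promoters the median was 6 CpG and 52.4% GC. A TATA box was in 12.4% of those promoters, a GC box in 32.7% and a CCAAT box in 33.9%. The SMAD palindrome GTCTAGAC, in 0.167% of all promoters, and the SOX core AACAAT, in 9.43%, were in none of the 11 windows. These are letter matches and not shown sites of binding.

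**Figure D1:**
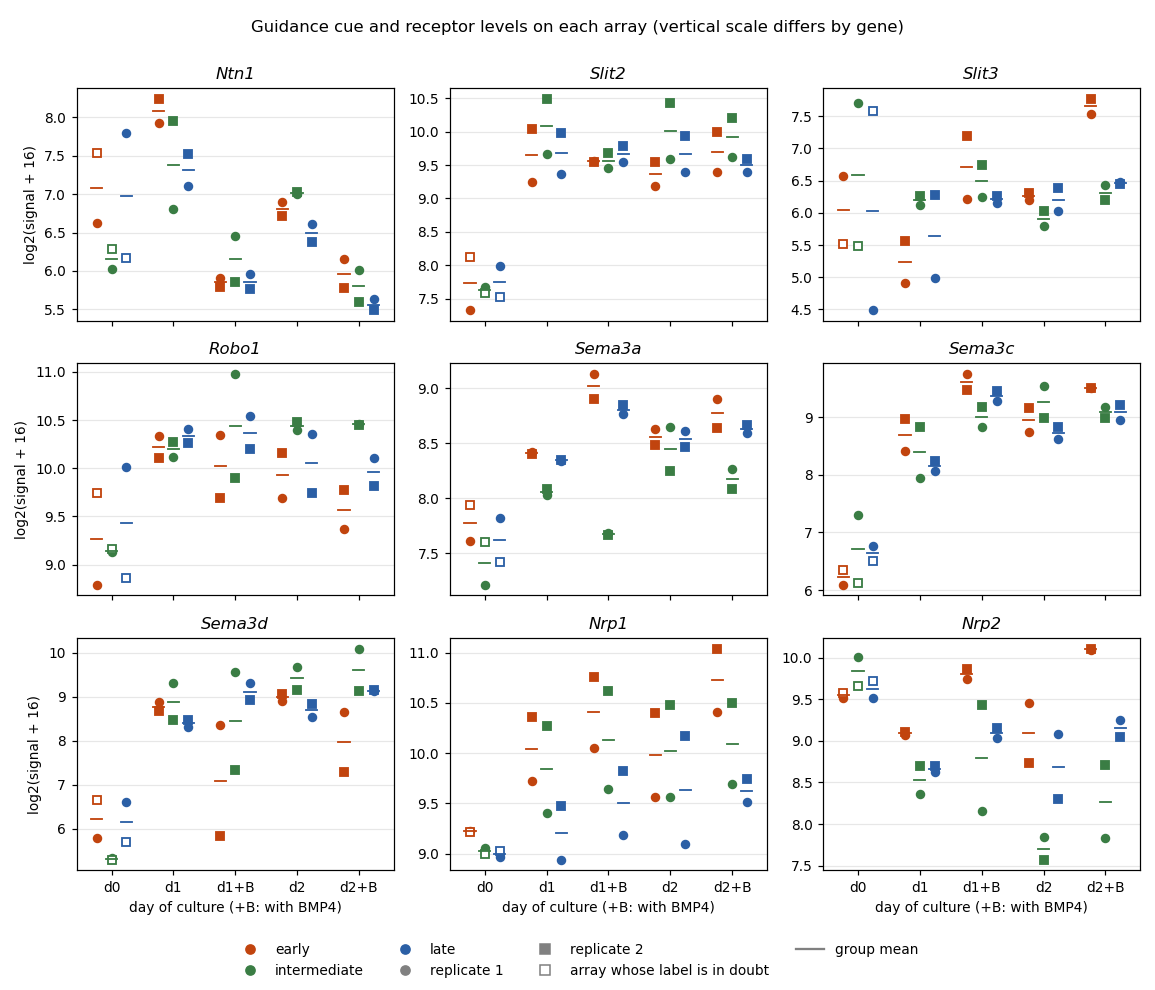
Level of each tested gene on all 30 arrays, as log2(signal + 16), by day of culture and medium, with colour for the population, circles for replicate 1, squares for replicate 2 and a dash for the group mean. Open squares are the 3 day 0 arrays in doubt. Ntn1 drops in every BMP4 group, Slit2, Sema3c and Sema3d climb after day 0, and Nrp2 falls in control medium.

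More of the 9 genes were called from day 0 to day 1 or 2 of control culture than in any single BMP4 comparison. The same held for the share of all genes. The time comparisons here average 3 populations, while a single BMP4 comparison sets 2 arrays against 2. Between day 0 and day 1 of control culture, averaged over populations, Ntn1, Slit2, Robo1, Sema3a, Sema3c and Sema3d rose and Nrp2 fell (6 and 1 of 9), while 39.5% of all tested genes were called (22.5% higher, 17% lower). The median change of the 9 was 0.85, against 0.00 over all genes. Between day 0 and day 2, 6 rose and 1 fell, the same but with Nrp1 in place of Ntn1, with 48.5% of all genes called (26.9% higher, 21.5% lower) and medians of 0.86 and -0.01. Between days 1 and 2, 0 rose and 1 fell, Ntn1, with 8.55% of all genes called (5.61% higher, 2.94% lower; 76.3% of calls higher with arrays centred on their median against 65.6% as given) and 3 of the 9 at an unadjusted p below 0.05. Between those days 3322 of all 15136 genes had an unadjusted p below 0.05. These comparisons over time share arrays and are not independent of each other. Over the same time the red blood cell markers fell in 4 of 4 tested genes and the endothelial markers in 7 of 8 by day 1, and the cartilage markers rose in 8 of 8 by day 2.

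Ntn1, which encodes netrin-1, rose for a day in control medium and was lower in every BMP4 group. In early control cultures it read 6.62 and 7.54 on day 0, 7.93 and 8.24 on day 1, and 6.90 and 6.71 on day 2. With BMP4 it read 5.91 and 5.79 on day 1 and 6.15 and 5.78 on day 2. All BMP4 arrays of the early population lay below all of its control arrays.

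In the intermediate population Ntn1 went from 6.02 and 6.29 on day 0 to 6.81 and 7.95 on day 1 and 7.00 and 7.03 on day 2, and BMP4 arrays read 6.46 and 5.86, then 6.01 and 5.59. In the late population it went from 7.79 and 6.17 to 7.10 and 7.52 and then 6.61 and 6.38, and BMP4 arrays read 5.96 and 5.76, then 5.63 and 5.49. BMP4 arrays lay below the control arrays of the same population and day without overlap in 6 of 6 pairs of groups. That holds for 67 of 15136 genes, or 0.443%.

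The fit called the Ntn1 drop in the early population at day 1, by 2.23 on the log2 scale (-2.23 ± 0.40, 4.71-fold, limma adjusted p = 0.00304). It was the 1 call among the 9 genes in that comparison, where 2.45% of all genes were called (1.53% higher, 0.918% lower), and it held in each of 4 fits with 1 array left out (-2.39 to -2.08). Higher values made up 62.5% of all genes' calls there, and 42.8% with arrays centred on their median, which moved the median of all genes by -0.12. The other populations gave -1.22 ± 0.40 (intermediate, adjusted p = 0.342) and -1.45 ± 0.40 (late, adjusted p = 0.227) at day 1. At day 2 the values were -0.84 ± 0.40, -1.22 ± 0.40 and -0.93 ± 0.40 in early, intermediate and late cultures, with adjusted p of 0.239, 0.797 and 1. In the other 5 comparisons of BMP4 with control, 0 of the 9 genes passed, against 5.68% of all genes in early day 2 cultures (2.4% higher, 3.28% lower). The share called was 0.238% in intermediate day 1 (0.0661% lower), 0.00661% in intermediate day 2, 0.0793% in late day 1 (0.0661% higher) and 0.0132% in late day 2 cultures. Median centring lowered the share of higher calls in early day 2 cultures from 42.3% to 18.4%. The unadjusted p was below 0.05 for 6 of the 9 in early day 1 cultures, and for 2, 2, 1, 3 and 1 in the other 5 in the order just given. Among all 15136 genes that held for 2274 in early day 1 cultures. In the other 5 it held for 3088, 1134, 686, 1144 and 712.

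Averaging the 6 responses, a comparison added after the data were seen, gave Ntn1 -1.32 ± 0.16 (2.49-fold, limma adjusted p = 2.28e-05), and 2 of 9 genes rose and 1 fell where 11.7% of all genes were called (6.1% higher, 5.55% lower). With median centring 34.1% of all calls were higher, against 52.4%. Averaged over both days, Ntn1 was at -1.54 ± 0.28 in early (adjusted p = 0.00131), -1.22 ± 0.28 in intermediate (adjusted p = 0.0558) and -1.19 ± 0.28 in late cultures (adjusted p = 0.0868). Without the 3 doubted arrays the latter pair passed at the same values (adjusted p = 0.0103 and 0.0129). The intermediate value also passed without intermediate day 1 BMP4 replicate 1 (-1.37, adjusted p = 0.0419) or control replicate 1 of that day (-1.5, adjusted p = 0.0267). Tests of the difference between populations gave -0.35 ± 0.40 for early minus late and -0.32 ± 0.40 for early minus intermediate, with 95% intervals of -1.18 to 0.48 and -1.15 to 0.51. A second, dimmer probe set of Ntn1 was lower by less, at -0.67 ± 0.26 in early day 1 cultures (adjusted p = 0.244) and -0.30 ± 0.11 averaged (adjusted p = 0.0901).

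In control medium Ntn1 rose by 0.85 ± 0.23 from day 0 to day 1 (adjusted p = 0.00532), and its second probe set showed 0.01 ± 0.15. It fell by 0.82 from day 1 to day 2 (± 0.23, adjusted p = 0.0303), and day 2 minus day 0 was 0.04 ± 0.23. That fall kept its call in 3 of 12 fits with 1 array left out, those without replicate 1 of a day 1 control group. The highest adjusted p among the rest was 0.11, without intermediate day 1 control replicate 2 (-0.63 ± 0.23). Day 0 was uneven: the highest arrays were late replicate 1 at 7.79 and the array labelled early replicate 2 at 7.54. Without the doubted arrays, late cultures lost Ntn1 from day 0 to day 2 (-1.30 ± 0.36, adjusted p = 0.0178), where the labels as given yield -0.48 ± 0.40.

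**Figure D2:**
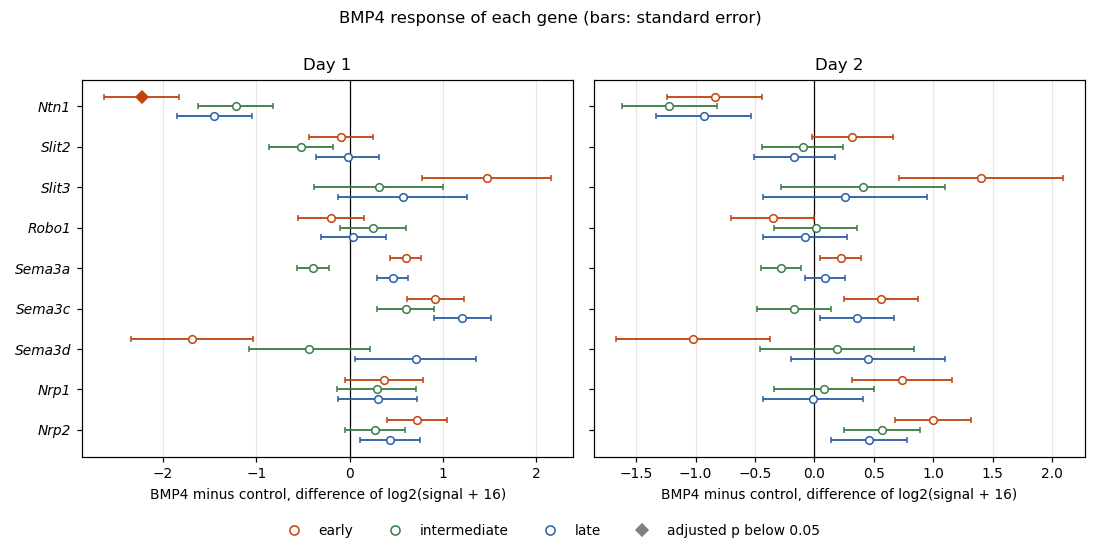
BMP4 minus control for each gene in the 3 populations, as a difference of log2(signal + 16) with its standard error, at day 1 (left) and day 2 (right); the scales of the panels differ. The filled diamond is the 1 value past the threshold, Ntn1 in the early population at day 1 (-2.23). Ntn1 lies below 0 in all 6 groups, and Slit3 and Nrp2 lie above 0 in all 6.

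Slit2, a large secreted ligand of Robo receptors, rose several-fold within a day of plating and did not pass with BMP4. The 6 day 0 arrays read 7.33 and 8.13 in early, 7.67 and 7.59 in intermediate, and 7.99 and 7.52 in late cells. The control arrays of day 1 read 9.25 and 10.04, 9.67 and 10.49, and 9.37 and 9.98 in the same order. Every control array of day 1 lay above every day 0 array.

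The rise of Slit2 was 2.10 ± 0.20 by day 1 (4.28-fold, limma adjusted p = 3.84e-08) and 1.98 ± 0.20 by day 2, and without the doubted arrays 2.14 ± 0.24 and 2.02 ± 0.24. Both other Slit2 probe sets rose too, by 1.30 ± 0.20 and 0.54 ± 0.14 at day 1. Control arrays of day 2 lay between 9.19 and 10.43 and BMP4 arrays of both days between 9.39 and 10.21. The averaged BMP4 difference was -0.10 ± 0.14, with a 95% interval of -0.39 to 0.19. Replicate 2 of Slit2 stood above replicate 1 in 11 of 12 cultured groups, with a median shift of 0.56 over the 12. These ranges and the interval include that shift.

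Slit3, another ligand of the family, was uneven at day 0 and read higher with BMP4 in every pair of group means. Its day 0 levels were 6.58 and 5.52 in early, 7.70 and 5.49 in intermediate, and 4.49 and 7.58 in late cells. The high arrays were intermediate replicate 1 and the array labelled late replicate 2, which were also the 2 day 0 arrays with the lowest Meis2 levels, at 6.97 and 7.53.

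In early control cultures Slit3 read 4.91 and 5.57 on day 1 and 6.20 and 6.31 on day 2, and with BMP4 6.22 and 7.20, then 7.54 and 7.77. The BMP4 arrays did not overlap their controls on either day, and the pair at day 2 were the highest of all cultured arrays. The differences were 1.47 ± 0.69 (2.77-fold) and 1.40 ± 0.69 (2.64-fold), and neither passed (limma adjusted p = 0.325 and 0.263). Without the doubted arrays the error dropped to 0.35 and both passed at the same values (adjusted p = 0.0298 and 0.0251).

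In intermediate cultures Slit3 read 6.13 and 6.26 on day 1 without BMP4 and 6.25 and 6.75 with it, and 5.79 and 6.03, then 6.43 and 6.20, on day 2. In late cultures it read 4.99 and 6.28 against 6.16 and 6.26, and 6.03 and 6.38 against 6.48 and 6.45. BMP4 arrays lay wholly above control in a single pair for 15.2% to 27.1% of all genes. The share with higher means in 6 of 6 pairs, or with 4 pairs free of overlap, was not counted. For Slit3, group means were higher with BMP4 in 6 of 6 pairs, 4 of them without overlap. The average was 0.74 ± 0.28 (adjusted p = 0.102), or 0.74 ± 0.14 without the doubted arrays (adjusted p = 0.00256).

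Change of Slit3 over time in control medium depended on those arrays. Averaged day 2 minus day 0 was -0.10 ± 0.40, and -0.13 ± 0.25 without them. Within populations the values without them were -1.80 ± 0.43 in intermediate (adjusted p = 0.00578) and 1.72 ± 0.43 in late cultures (adjusted p = 0.00989), where the labels as given yield -0.69 ± 0.69 and 0.17 ± 0.69. Day 0 then rests on 1 array per population, which is assumed to vary like the other groups. Leaving out late day 0 replicate 1, at 4.49, gave a called fall from day 0 to day 1 (-1.05 ± 0.32, adjusted p = 0.0133) where the full set gave -0.54 ± 0.40.

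Robo1, a receptor of Slits, rose in its brightest probe set and fell in another. On the brightest it read 8.79 and 9.74 in early, 9.13 and 9.16 in intermediate, and 10.01 and 8.86 in late cells on day 0. On day 1 of control culture it read 10.33 and 10.11, 10.12 and 10.27, and 10.41 and 10.26, above every day 0 array. That rise was 0.97 ± 0.20 (limma adjusted p = 0.000655), and 0.86 ± 0.20 by day 2.

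Another Robo1 probe set, with a median signal of 56.4 against 1090 for the brightest, fell by 0.69 to day 1 (± 0.16, adjusted p = 0.00174) and by 0.55 to day 2 (± 0.16, adjusted p = 0.00722). The remaining probe set gave 0.09 ± 0.14 and 0.25 ± 0.14. With all 3 averaged the changes were 0.12 ± 0.13 and 0.19 ± 0.13 and did not pass, so the direction for the gene as a whole is unsettled. The averaged BMP4 difference on the brightest was -0.06 ± 0.14, with a 95% interval of -0.36 to 0.24, and BMP4 and control arrays overlapped in 6 of 6 pairs. Cultured control arrays lay between 9.69 and 10.48, and BMP4 arrays between 9.37 and 10.98.

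Robo2, the other Slit receptor on the list, gave a signal of 2.95 to 18.0 on the 30 arrays, or 4.24 to 5.09 on the log2 scale. Its probe set was in the lower part of each array, and no change could be read from it.

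Sema3a, a repellent of motor and sensory axons, rose in culture, and its BMP4 arrays lay on opposite sides of the controls in different populations at day 1. On day 0 it read 7.61 and 7.94 in early, 7.21 and 7.60 in intermediate, and 7.82 and 7.42 in late cells. Control arrays read 8.42 and 8.40, 8.03 and 8.08, and 8.34 and 8.35 on day 1, and 8.63 and 8.48, 8.65 and 8.25, and 8.61 and 8.46 on day 2. Every cultured control array lay above every day 0 array. The rise was 0.67 ± 0.10 by day 1 (limma adjusted p = 9.64e-06) and 0.91 ± 0.10 by day 2 (adjusted p = 9.73e-08).

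The call for Sema3a was stronger on the brightest probe set than on the others. The second showed 0.35 ± 0.16 and 0.43 ± 0.16 (adjusted p = 0.0901 and 0.03), and the dimmest 0.18 ± 0.21 and 0.08 ± 0.21. The means of the 3 kept the call for the rise averaged over populations but not for the early and late populations alone.

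With BMP4 Sema3a read 9.13 and 8.90 in early, 7.68 and 7.66 in intermediate, and 8.76 and 8.85 in late cultures on day 1. Early and late arrays lay above their controls and intermediate arrays below, with no overlap in any of the 3. Without overlap, 26.2% of all genes lay above in early, 16.4% below in intermediate and 20.6% above in late cultures on day 1. The Sema3a differences were 0.60 ± 0.17, -0.39 ± 0.17 and 0.46 ± 0.17 (limma adjusted p = 0.0608, 0.593 and 0.453). On day 2 it read 8.90 and 8.64, 8.26 and 8.08, and 8.59 and 8.66, and the differences of 0.22, -0.28 and 0.09 (each ± 0.17) were smaller. Early arrays then lay just above their controls, and the other populations overlapped.

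The response of Sema3a averaged over both days was 0.41 ± 0.12 in early cultures (adjusted p = 0.0281), -0.33 ± 0.12 in intermediate (adjusted p = 0.317) and 0.28 ± 0.12 in late cultures (adjusted p = 0.482). The early call was lost in 5 of 8 fits with 1 array left out, those without replicate 1 of early day 1 BMP4 (0.35, adjusted p = 0.103), of early day 2 BMP4, either early day 1 control array or early day 2 control replicate 2, and with arrays centred on their median (0.26 ± 0.12, adjusted p = 0.15). Early minus intermediate was 0.74 ± 0.17 (95% interval 0.40 to 1.09) and missed the threshold (adjusted p = 0.0524), and passed without the doubted arrays (adjusted p = 0.0254). It also passed without intermediate day 1 BMP4 replicate 2 (0.74, adjusted p = 0.0478) or intermediate day 2 control replicate 2 (0.84, adjusted p = 0.0257). In tests of such differences 0 of the 9 genes passed for any pair of populations, against 0.78%, 0.429% and 0% of all genes for early minus late, early minus intermediate and intermediate minus late. Higher values made up 43.2% and 49.2% of the calls for early minus late and early minus intermediate, and 11.4% and 31.6% with median centring. Intermediate minus late had no calls. In each of these 3 tests, 1 of the 9 had an unadjusted p below 0.05. Among all 15136 genes, 1817 did for early minus late, 1407 for early minus intermediate and 598 for intermediate minus late.

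Sema3c, a secreted semaphorin known as an attractant in the developing heart's outflow tract, rose strongly in culture and was higher with BMP4 on average. On day 0 it read 6.09 and 6.35 in early, 7.31 and 6.12 in intermediate, and 6.77 and 6.51 in late cells. On day 1 control arrays read 8.42 and 8.96, 7.95 and 8.83, and 8.07 and 8.24, and on day 2 8.74 and 9.15, 9.54 and 8.98, and 8.62 and 8.83. No cultured array reached down to any day 0 array. The rise was 1.89 ± 0.18 by day 1 (3.70-fold, limma adjusted p = 3.81e-08) and 2.45 ± 0.18 by day 2 (5.46-fold, adjusted p = 4.45e-10), or 1.69 ± 0.18 and 2.25 ± 0.18 without the doubted arrays.

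Between days 1 and 2 in control medium Sema3c changed by 0.56 ± 0.18 and missed the threshold (adjusted p = 0.0527). It passed without the doubted arrays (adjusted p = 0.0241), and without early day 1, intermediate day 1 or intermediate day 2 control replicate 2 (0.65 to 0.71).

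BMP4 arrays of Sema3c read 9.75 and 9.47 in early, 8.82 and 9.17 in intermediate, and 9.27 and 9.46 in late cultures on day 1, and 9.51 and 9.50, 9.18 and 8.99, and 8.95 and 9.21 on day 2. Early and late arrays lay above their controls on both days, 4 of 6 pairs without overlap. In each such pair that held for 17.8% to 27.1% of all genes, and the share over 4 of 6 pairs was not counted. The differences at day 1 were 0.92 ± 0.31, 0.60 ± 0.31 and 1.21 ± 0.31, none past the threshold (limma adjusted p = 0.131, 0.721 and 0.156). At day 2 they were 0.56, -0.17 and 0.36 (each ± 0.31), so the mean was higher with BMP4 in 5 of 6 pairs and lower in 1. The average of the 6 responses was 0.58 ± 0.13 (1.5-fold, adjusted p = 0.00406), and it kept its call in all 24 fits with 1 array left out. In early cultures the average was 0.74 ± 0.22 (adjusted p = 0.0306), a call lost in 5 of 8 such fits, those without early day 1 control replicate 1 (0.61, adjusted p = 0.16), early day 1 BMP4 replicate 1, either early day 2 BMP4 array or early day 2 control replicate 1, and with median centring (0.60 ± 0.21, adjusted p = 0.0637).

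Sema3d, another secreted class 3 semaphorin, showed the largest rise of the 9 genes after plating. On day 0 it read 5.80 and 6.66 in early, 5.35 and 5.30 in intermediate, and 6.60 and 5.71 in late cells. Control arrays read 8.87 and 8.68, 9.31 and 8.46, and 8.32 and 8.48 on day 1, and 8.91 and 9.07, 9.68 and 9.15, and 8.55 and 8.83 on day 2. The rise was 2.79 ± 0.38 by day 1 (6.90-fold, limma adjusted p = 4.65e-06) and 3.13 ± 0.38 by day 2 (8.77-fold, adjusted p = 5.73e-07), and its second probe set rose by 2.31 ± 0.34 and 2.38 ± 0.34. In intermediate cultures alone the change to day 2 was 4.09 ± 0.65 (17.1-fold, adjusted p = 6.38e-05). In late cultures alone it was 2.54 ± 0.65 (adjusted p = 0.00569), and without late day 0 replicate 2, 1 of the doubted arrays, it was 2.10 ± 0.80 and lost its call (adjusted p = 0.0812). In early cultures it was 2.76 ± 0.65 (adjusted p = 0.00342), and without early day 0 replicate 1 it was 2.33 ± 0.80 (adjusted p = 0.0537).

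With BMP4 the 2 arrays of a group disagreed on Sema3d in early cultures. They read 8.35 and 5.83 on day 1 and 8.65 and 7.29 on day 2. All lay below their controls, replicate 1 closely, as both arrays did for 17.2% of all genes on day 1 and 25% on day 2. Day 1 replicate 2 lay within the range of day 0. The differences were -1.69 ± 0.65 and -1.02 ± 0.65 (limma adjusted p = 0.206 and 0.401). Without early day 1 BMP4 replicate 1 the day 1 value was -2.95 ± 0.65 (adjusted p = 0.0197). The average of both days was -1.35 ± 0.46 (adjusted p = 0.0632), and passed without early day 1 BMP4 replicate 1 (-1.99, adjusted p = 0.00548) or early day 2 BMP4 replicate 1 (-1.69, adjusted p = 0.0336). Summed cartilage marker signals on the same early BMP4 arrays were 8200 and 3640 on day 1 and 9890 and 3880 on day 2, against 9270 and 7280, then 15500 and 15600, in control. The low arrays were the same for Sema3d and for the cartilage markers.

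In intermediate cultures with BMP4 Sema3d read 9.57 and 7.34 on day 1 and 10.09 and 9.12 on day 2, overlapping the controls on both days. In late cultures it read 9.30 and 8.92, then 9.13 and 9.15, above the controls on both days. The differences were 0.71 ± 0.65 and 0.45 ± 0.65. For 20.6% and 17.8% of all genes both late arrays lay above the controls on those days. Summed cartilage marker signals in late cultures were 12500 and 11500 with BMP4 against 7940 and 8360 in control on day 1, and 14400 and 13100 against 9990 and 13600, with overlap, on day 2. The early minus late difference of the averaged response was -1.93 ± 0.65 (95% interval -3.29 to -0.58) and did not pass over all genes (adjusted p = 0.205). Without early day 1 BMP4 replicate 1 it was -2.56 ± 0.56 (adjusted p = 0.0342).

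Nrp1, the main receptor of Sema3a and a co-receptor of vascular growth factors, was higher on average in control culture than on day 0. On day 0 it was even, from 8.97 to 9.23 on all 6 arrays. In control medium it read 9.72 and 10.36, 9.41 and 10.27, and 8.94 and 9.47 in early, intermediate and late cultures on day 1, and 9.56 and 10.40, 9.56 and 10.48, and 9.10 and 10.17 on day 2. Replicate 2 stood above replicate 1 in 12 of 12 cultured groups, BMP4 included, by a median of 0.76.

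The change of Nrp1 was 0.61 ± 0.24 by day 1 (limma adjusted p = 0.0528) and 0.79 ± 0.24 by day 2 (adjusted p = 0.0103). The former passed when replicate 1 of a day 1 control group was left out, in early (0.72), intermediate (0.75) or late cultures (0.70), with an adjusted p of 0.0377, 0.0259 and 0.0444. The latter call was lost without the doubted arrays (0.79 ± 0.33, adjusted p = 0.0616) and without late day 2 control replicate 2 (0.62 ± 0.25, adjusted p = 0.0506). With BMP4 it read 10.05 and 10.76, 9.64 and 10.62, and 9.19 and 9.82 on day 1, and 10.41 and 11.04 in early and 9.51 and 9.74 in late cultures on day 2, when the intermediate arrays had a mean of 10.1 (SD 0.57, n = 2). BMP4 and control arrays overlapped in 5 of 6 pairs, and the averaged difference was 0.30 ± 0.17 (95% interval -0.06 to 0.66, adjusted p = 0.307). Replicate 2 stood above replicate 1 by a median of 0.76, so overlap says little about a response of Nrp1. With the replicate number as a block, limma gave 0.30 ± 0.09 (adjusted p = 0.0372). The labels do not say that this number marks a shared batch.

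Nrp2, the neuropilin best known as a receptor of Sema3f and of lymphatic growth factors, fell in control medium and was higher with BMP4. On day 0 it read 9.52 and 9.58 in early, 10.01 and 9.66 in intermediate, and 9.52 and 9.72 in late cells. Control arrays read 9.07 and 9.11, 8.36 and 8.70, and 8.63 and 8.70 on day 1, and 9.46 and 8.74, 7.84 and 7.57, and 9.08 and 8.30 on day 2. Every cultured control array lay below every day 0 array.

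The fall of Nrp2 was -0.91 ± 0.18 by day 1 (1.87-fold, limma adjusted p = 0.000492) and -1.17 ± 0.18 by day 2 (2.25-fold, adjusted p = 2.03e-05), and both held without the doubted arrays (-0.92 ± 0.24 and -1.19 ± 0.24). Both other probe sets fell as well, by 0.56 (± 0.16) and 0.87 (± 0.16) at day 1. By population the day 2 change was -2.13 ± 0.32 in intermediate (adjusted p = 3.46e-05), -0.93 ± 0.32 in late (adjusted p = 0.0344) and -0.45 ± 0.32 in early cultures (adjusted p = 0.353). The late call was lost without late day 0 replicate 1, late day 0 replicate 2 or late day 2 control replicate 2, the last giving -0.54 ± 0.37. From day 0 to day 2, 4 of the 9 genes rose in early cultures. In intermediate cultures 5 rose and 1 fell, and in late cultures 4 rose and 1 fell. The shares of all genes called were 24.1%, 30.3% (17.6% higher) and 27.5%. These counts depend on the doubted arrays. Without them Robo1 changed by 1.14 in early cultures (0.66 as labelled) and Slit3 by -1.80 in intermediate ones (-0.69). In late cultures Slit3 then changed by 1.72 (0.17 as labelled), Ntn1 by -1.30 (-0.48) and Robo1 by 0.04 (0.61).

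**Figure D3:**
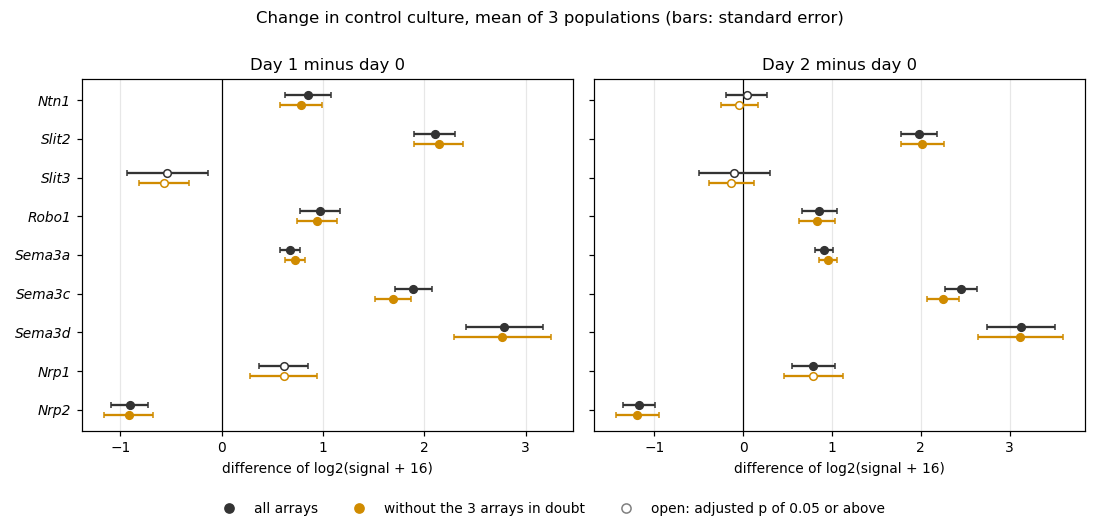
Change of each gene in control culture, averaged over the 3 populations, as a difference of log2(signal + 16) with its standard error, from day 0 to day 1 (left) and to day 2 (right), with all arrays (dark) and without the 3 arrays in doubt (orange). Sema3d, Slit2 and Sema3c rise most, Nrp2 falls, and of these values only that of Nrp1 at day 2 changes its side of the threshold without those arrays (filled symbols passed).

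BMP4 arrays of Nrp2 read 9.75 and 9.87 in early cultures on day 1 and 10.09 and 10.11 on day 2, above their controls. Intermediate arrays read 8.16 and 9.43, then 7.83 and 8.71, and late arrays 9.04 and 9.15, then 9.25 and 9.05. Group means were higher with BMP4 in 6 of 6 pairs, and 3 pairs did not overlap. These were early cultures on days 1 and 2 and late cultures on day 1. There, 26.2%, 27.1% and 20.6% of all genes lay above control without overlap. The share of all genes with higher means in 6 of 6 pairs was not counted.

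Averaged over the 6 responses, Nrp2 rose by 0.57 ± 0.13 (1.49-fold, limma adjusted p = 0.00628), and all 24 fits with 1 array left out kept that call. The other probe sets rose by 0.54 ± 0.12 and 0.76 ± 0.11. The early average was 0.86 ± 0.23 (adjusted p = 0.0174), lost in 4 of 8 such fits, those without early day 2 control replicate 2 (0.68, adjusted p = 0.0932), early day 1 control replicate 1 or replicate 2 of early BMP4 on either day. With Sema3a and Sema3c, 3 of 9 genes rose and 1 fell in this early average, where 11% of all genes were called (5.44% higher, 5.59% lower). Of all genes' calls 49.3% were higher, and 20.8% with median centring, which moved the median of all genes by -0.15. No single fit with 1 array left out kept all 4 calls (1 to 3 were called). The intermediate and late averages called 0 of the 9, against 0.509% and 0.277% of all genes. There 2 and 3 of the 9 had an unadjusted p below 0.05, against 1314 and 1339 of all 15136 genes. Macrophage markers moved beside these values: 6 of 7 were higher in the early average, in which 5 of 8 cartilage markers were lower, and their summed signal in early and intermediate cultures was 785 to 1110 with BMP4 and 366 to 638 in control. In late cultures it was 304 to 380 with BMP4 and 292 to 385 in control. The 6 tested markers of nerve and Schwann cells summed to more with BMP4 without overlap in 6 of 6 pairs of groups. Their sums were 1080 and 783 against 611 and 735 in early cultures at day 1, and 691 and 800 against 679 and 596 in late cultures at day 2. In the early average 3 of the 6 tested were higher and 1 lower, and in the average of all populations 2 were higher; 2 of 6 smooth muscle markers were higher in both. The part of these cell types in the responses of the 9 genes was not tested.

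Between populations in control culture, averaged over days 1 and 2, Nrp2 was the 1 gene of 9 called. It was higher in early than in intermediate cultures by 0.98 ± 0.23 (1.97-fold, limma adjusted p = 0.0403), in a comparison with 0.852% of all genes called. The call was kept in 1 of 8 fits with 1 array left out, that without early day 2 control replicate 2. Without early day 2 control replicate 1 it was 0.80 ± 0.24 (adjusted p = 0.263). It was also lost without the doubted arrays (adjusted p = 0.064). Early minus late and intermediate minus late called 0 of 9, against 1.48% (1.24% lower) and 2.64% of all genes. There 0 and 1 of the 9 had an unadjusted p below 0.05, against 1332 and 1985 of all 15136 genes. In those comparisons, Nrp1 showed 0.59 ± 0.30 and 0.51 ± 0.30, and Nrp2 0.42 ± 0.23 and -0.56 ± 0.23.

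The order of the 15 group means summarises each gene, as a description. Ntn1 was highest in early control cultures of day 1 and lowest in late BMP4 cultures of day 2, Slit3 highest in early BMP4 cultures of day 2, and Sema3a and Sema3c highest in early BMP4 cultures of day 1. Sema3d topped out in intermediate BMP4 cultures of day 2 and Nrp1 and Nrp2 in early BMP4 cultures of day 2. Of the 14 steps between neighbours in that order, the arrays failed to overlap in 5 for Sema3a, 3 each for Sema3c and Nrp2, 2 each for Slit3 and Sema3d, 1 each for Ntn1 and Slit2 and 0 for Robo1 and Nrp1. The order was sorted on these same arrays. Such steps were not counted over all genes, so these counts cannot be called high or low. Group means spanned from 1.31 for Robo1 to 4.29 for Sema3d.

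Over the 15 group means, which share day 0, media and populations, Slit2, Sema3c and Sema3d ran closely together (Pearson r = 0.769 to 0.897). Robo1 ran with Slit2 at 0.864 and with Sema3d at 0.861, and Sema3c with Nrp1 at 0.801 and with Sema3a at 0.796. Nrp2 ran against Robo1 (-0.768) and Sema3d (-0.721), and Ntn1 against Slit3 (-0.732). Outside the list, the genes most like Ntn1 were Pard6b, Hook1 and Dcx (r = 0.857, 0.838 and 0.836). The genes most like Slit2 were Arhgef10, Zfp935 and Klhl42 (0.987, 0.980 and 0.979), and those most like Sema3d were Fibin, Matn4 and Col9a1 (0.985, 0.976 and 0.973). Sema3c ran with Pld3, Gpx8 and Ckap4 (0.981, 0.978 and 0.977), Nrp1 with Crispld2, Tmem43 and Ctsd (0.960, 0.951 and 0.946) and Robo1 with Clec14a, Pla2g7 and Farp2 (0.945, 0.943 and 0.936). Lower values were found for Nrp2 with Acvr2a, Nav1 and Maoa (0.924, 0.915 and 0.913), Sema3a with Cdh10, Tvp23a and Ehbp1l1 (0.899, 0.896 and 0.893) and Slit3 with Kcnma1, Lacc1 and Akap13 (0.892, 0.888 and 0.864).

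Other genes of these pathways were read from a list of 68 ligands, receptors, coreceptors and mediators, of which 66 were tested. Ntng2 and Slit1 lay below the filter on dim genes. In control culture 22 of 66 rose and 13 fell from day 0 to day 2, where 26.9% and 21.5% of all genes did, with a median of 0.11 against -0.01 over all genes, and 22 rose and 9 fell without the doubted arrays. By day 1, 17 of 66 had risen and 13 fallen, against 22.5% and 17% of all genes. These shares are near those of all genes.

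Further secreted cues and netrin receptors were among those that rose by day 2. Sema3e, a semaphorin that acts on plexin D1 without a neuropilin, rose by 3.44 ± 0.25 (10.9-fold, limma adjusted p = 4.83e-10). Flrt2, a membrane protein that binds UNC5 receptors, rose by 2.07 ± 0.15, the netrin receptor Unc5c by 2.01 ± 0.15 and Sema3b by 1.66 ± 0.16. The membrane-bound semaphorins Sema4c, Sema4d and Sema6d fell, with differences of -1.04 ± 0.08, -1.07 ± 0.12 and -1.0 ± 0.16, as did the vascular growth factor Vegfd at -1.26 ± 0.21. Each of these 8 calls held in 12 of 12 fits with 1 array left out. From day 1 to day 2, 5 of 66 rose, led by Vegfa (0.59 ± 0.12), Rgmb (0.66 ± 0.14), Dscam (0.82 ± 0.21) and Pgf (0.62 ± 0.17), and 2 fell, Sema4c (-0.29 ± 0.08) and Sema3b (-0.52 ± 0.16). The calls of Vegfa and Rgmb held in 12 of 12 fits with 1 array left out, and those of Dscam, Pgf, Sema4c and Sema3b in 8, 5, 4 and 3.

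With BMP4, averaged over the 6 responses, 10 of 66 rose and 6 fell (7 and 6 with median centring), against 6.1% and 5.55% of all genes, and 7 to 9 rose and 4 to 6 fell with 1 array left out. The medians were 0.06 for the list and 0.01 for all genes. The transmembrane semaphorin Sema6d rose by 1.01 ± 0.11 (limma adjusted p = 5.4e-06), Dpysl3, a cytoplasmic mediator of semaphorin signals, by 0.96 ± 0.11, the semaphorin receptor Plxna2 by 0.68 ± 0.09 and the netrin receptor Unc5b by 0.96 ± 0.16. Vegfa, the neuropilin-binding growth factor, was at -0.48 ± 0.08, Sema6a at -0.50 ± 0.11, Sema6b at -0.51 ± 0.13 and the growth factor receptor Flt1 at -0.49 ± 0.13. These 8 calls held in all 24 fits with 1 array left out. The mean of all probe sets gave a smaller rise of Sema6d (0.36).

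**Figure D4:**
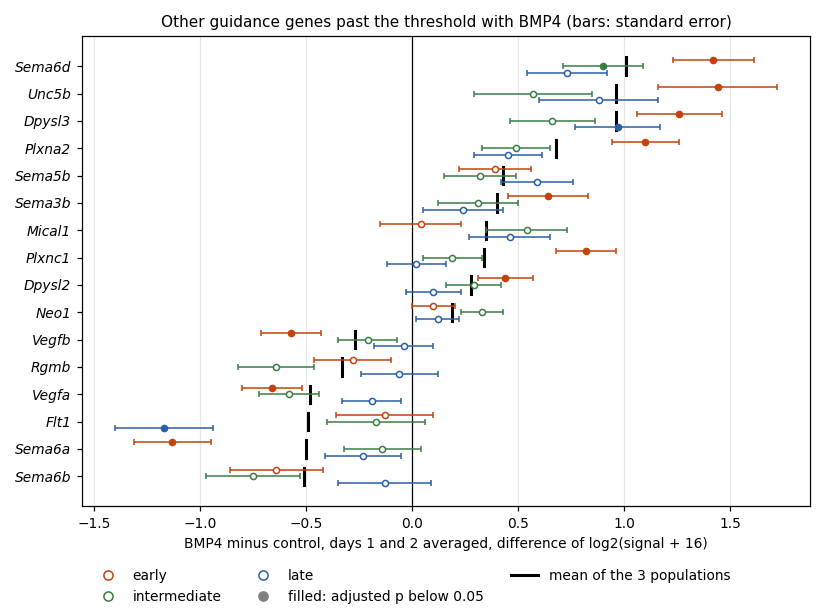
BMP4 minus control, averaged over days 1 and 2, for the 16 genes of the 66 that passed in the average of the 3 populations (black bars), with each population's value and standard error as a difference of log2(signal + 16). Filled circles passed in that population alone. Sema6d, Unc5b, Dpysl3 and Plxna2 lie above 0 in all 3 populations, and among all 66 genes 11 early, 1 intermediate and 2 late values passed.

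Per population and day, genes of the wider list were called in early cultures with the settings used here. On day 1, where 1.53% of all genes were higher and 0.918% lower, 6 rose, led by Sema6d (1.68 ± 0.27), Plxnc1 (1.02 ± 0.20), Plxna2 (1.18 ± 0.23) and Dpysl3 (1.15 ± 0.28), and Sema6a fell (-1.01 ± 0.26). With the mean of all probe sets the day 1 calls of Sema6d, Plxnc1 and Dpysl3 were lost. On day 2, where 2.4% of all genes were higher and 3.28% lower, Dpysl3 (1.38 ± 0.28), Plxna2 (1.02 ± 0.23), Sema3b (1.17 ± 0.27) and Sema6d (1.16 ± 0.27) rose, and Sema6a (-1.25 ± 0.26) and Vegfb (-0.72 ± 0.20) fell. With 1 array left out these counts were 1 to 4 higher and 0 to 1 lower on day 1, and 0 to 3 higher and 0 to 4 lower on day 2. The day 2 calls of Sema6d and Vegfb held in 0 of 4 such fits, and that of Plxna2 in 1. Those of Dpysl3, Sema3b and Sema6a on day 2 held in 2. On day 1 Sema6d held in 4, Plxnc1 in 3, and Plxna2, Dpysl3 and Sema6a in 1 each. The mean of all probe sets also lost the day 2 call of Sema6d. Median centring gave 3 higher and 1 lower on day 1, and 4 higher and 5 lower on day 2. In the other 4 comparisons limma called 0 of 66 with these settings. In intermediate cultures 9 and 6 had an unadjusted p below 0.05 on days 1 and 2, and in late cultures 11 and 7. Among all 15136 genes the counts were 1134 and 686 in intermediate and 1144 and 712 in late cultures. Late day 1 cultures had 1 to 4 calls under 8 of 11 alternatives, the most being 3 higher and 1 lower with the replicate number as a block. Intermediate day 1 cultures had 1 under that block and up to 3 with 1 array left out. For the difference between populations in response limma called 0 of 66 in each pair. Early minus late, early minus intermediate and intermediate minus late had 14, 9 and 7 at an unadjusted p below 0.05. Among all 15136 genes those counts were 1817, 1407 and 598. Median centring called 3 lower for early minus late and 1 lower for early minus intermediate. Quantile normalization and moderation without a trend called 1 each for early minus late, the block 1 higher and 2 lower, and the fit of only the arrays compared 1 higher and 1 lower.

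In control cultures 1 of the 66 was called for early minus late, 3 for early minus intermediate and 5 for intermediate minus late, against 1.48%, 0.852% and 2.64% of all genes. Plxnc1, a plexin that binds Sema7a, was lower in early cultures than in late (-0.85 ± 0.14, limma adjusted p = 0.0013) and intermediate ones (-0.71 ± 0.14). Flrt2 was lower in early than in intermediate cultures (-1.02 ± 0.18), and Dpysl4 was higher (0.76 ± 0.16). Intermediate cultures had more Flrt2 (0.78 ± 0.18) and Plxnb1 (0.45 ± 0.12) and less Sema4a (-1.24 ± 0.27), Pgf (-0.81 ± 0.21) and Sema6d (-0.72 ± 0.19) than late ones. Of 8 skeletal muscle markers, 6 were lower in intermediate and 6 in early than in late control cultures, and their part in these differences was not tested. Among these 9 values the call of Plxnc1 in early against late cultures held in 8 of 8 fits with 1 array left out. In early against intermediate cultures those of Flrt2, Plxnc1 and Dpysl4 held in 7, 4 and 2 of 8. In intermediate against late cultures Sema4a held in 5, Flrt2 in 3, and Plxnb1, Pgf and Sema6d in 1 each. Of 11 other alternatives, 7, 5 and 4 kept the calls of Plxnb1, Pgf and Sema6d.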

How the data were processed

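The deposited values are signal intensity on a linear scale, made by the authors with MAS5 per the submitters' processing notes; the sources used here do not give its settings. Each array's trimmed mean was 150. Intensity was used as log2(signal + 16), 16 being the pseudocount, without further scaling, so changes of dim genes are understated. Of 45101 probe sets, 33198 lay above their array's 40th percentile (20.3 to 30.5 in signal) on 2 or more arrays. Genes were named from the platform annotation, and the brightest kept probe set of each gene with 1 symbol was used, which gave 15136 genes.

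Tests used limma 3.58.1 in R 4.3.3: 1 fit of all 30 arrays with a mean per group, no block for the replicate number, moderation with a mean-variance trend, two-sided p-values and, in each comparison, adjustment over all genes by Benjamini-Hochberg. The fit had 15 residual and 5.51 prior degrees of freedom. There were 18 comparisons (6 of BMP4 against control, 3 of the response between populations, 6 over time, 3 between populations) and 4 averaged BMP4 comparisons added after the data were seen. The procedure was tested on simulated data with independent noise, correct labels and the same spread in all groups. That test does not cover shifts shared by a replicate number or labels in doubt. Nothing in the labels says which cultures were separate animals or litters, so p-values measure the spread between these arrays. A group's error uses a spread shared by all 15 groups.

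The members and lists were chosen with earlier results of these data known. Named are all 10 members, for each comparison described up to 4 genes of the wider list in each direction with the smallest adjusted p, the 3 genes most like each member over 15 group means, and Pitx1, Tbx5 and Meis2 as a check of labels. Fold values are powers of the log2 difference. Alternatives were other pseudocounts, filters, scalings, probe set rules and moderation, a replicate block, fits of fewer arrays and each array left out.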

Additional observations from a re-analysis of the deposited data

Results flagged for a closer look

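In 3 cases a gene's BMP4 arrays lay wholly on opposite sides of their controls in different populations. Such separation was common in single pairs of groups. BMP4 arrays lay wholly above their controls for 15.2% to 27.1% of all genes and below for 12.6% to 25%. The share of genes parted between populations in this way was not counted. For Sema3a at day 1 the differences were 0.60 in early, -0.39 in intermediate and 0.46 in late cultures. For Sema3d the early and late populations parted on both days, with -1.69 and 0.71 at day 1 and -1.02 and 0.45 at day 2. The difference between populations on a single day was not tested. Averaged over both days it did not pass the limma threshold for either gene (Sema3a early minus intermediate 0.74, adjusted p = 0.0524; Sema3d early minus late -1.93, adjusted p = 0.205).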

How the results depend on the processing

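No called value of a member reversed under any alternative. With 1 array left out, 320 of 356 called values stayed past the threshold and 36 did not, and under the other alternatives 410 of 429 stayed and 19 did not. The following counts of called members moved by over 1.5 times, and smaller moves, by 1 or 2 genes, are not listed. For BMP4 in early cultures at day 1 (1), a pseudocount of 64, quantile normalization and the replicate block gave 2, and leaving out the 3 doubted day 0 arrays gave 3. At day 2 (0), the mean of probe sets, the replicate block, the fit without the doubted arrays and the fit of only the arrays compared gave 1, as did the last for late cultures at day 1 (0). For the early minus intermediate response (0), a pseudocount of 64, the filter at the 60th percentile, quantile normalization, the replicate block and the fit without the doubted arrays gave 1. For day 2 minus day 1 (1), the same settings other than quantile normalization gave 2, and the mean of probe sets 0. For day 2 minus day 0 in late cultures (5) the mean of probe sets gave 3. For early minus intermediate controls (1), no filter, median centring, moderation without a trend and the fit without the doubted arrays gave 0. The averaged BMP4 response in intermediate cultures (0) became 1 with median centring, quantile normalization, the replicate block or without the doubted arrays, and in late cultures (0) it became 1 without those arrays and 2 with only the arrays compared.

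Leaving out each array gave 1 to 2 for BMP4 in early cultures at day 1, 0 to 1 for the early minus late and early minus intermediate responses, 7 to 8 for day 1 minus day 0, 0 to 1 for day 2 minus day 1, 6 to 7 for day 2 minus day 0, 3 to 4, 6 to 7 and 4 to 5 for it in early, intermediate and late cultures, 0 to 1 for early minus intermediate controls, 3 for BMP4 averaged over all, and 1 to 3 and 0 to 1 for it in early and intermediate cultures. The others stayed at 0.

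The labels do not say that a replicate number marks a shared batch. Deviations of same-numbered arrays correlated at -0.0023 to 0.35 over 66 pairs of cultured groups, 55 of them above 0.1, and at -0.092 to 0.11 over the 3 pairs of day 0 groups. With the replicate number as a block all 39 called values kept their calls, and Nrp1 passed in further comparisons, such as day 1 minus day 0 (0.61, adjusted p = 0.000787) and BMP4 against control averaged over all (0.30, adjusted p = 0.0372), over the early population (0.56, adjusted p = 0.0249) and in early cultures at day 2 (0.74, adjusted p = 0.0462).

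Median centring shifted all genes by -0.13 in intermediate cultures with BMP4 at day 2, by -0.17 in early cultures at day 2 and by -0.19 in the early minus late response. No detection calls were used, so Robo2 could not be marked absent. Leaving an array out puts a group on 1 array, which is then assumed to vary like the others.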
